A study of Homo sapiens with 2 samples.

Results

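The genes of the RUNX family and of the proteins that work with it were examined for their own occupancy by RUNX2 and MTA1. The set held 9 of 20037 protein-coding genes: the transcription factor genes RUNX1, RUNX2 and RUNX3, the gene of their shared partner CBFB, the Groucho corepressor genes TLE1 and TLE3, and the ETO family corepressor genes RUNX1T1, CBFA2T2 and CBFA2T3. The genes were chosen by name, as the family and its known cofactors, and not by any value in the data. A peak was counted for a gene when at least 1 bp of it lay inside the gene or within 50 kb of either end in the RefSeq annotation of GRCh38. By this rule 86 of 61700 RUNX2 peaks and 60 of 42683 MTA1 peaks belonged to the 9 genes.

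Both libraries came from MDA-MB-231, an established human line of triple-negative breast cancer, grown in DMEM with serum, and the labels give no treatment, knockdown or altered gene for either. Chromatin was profiled by CUT&Tag, in which an antibody brings a transposase to the bound protein and the DNA cut there is sequenced, to find the targets of RUNX2 and of MTA1, a component of the NuRD complex that remodels and deacetylates nucleosomes. Each antibody had 1 library, so no value below has a replicate, no p-value was computed, and a difference between RUNX2 and MTA1 is a difference between 2 libraries. The labels name another supplier for each antibody than the methods do, so the products used cannot be told apart here.

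RUNX proteins bind DNA through the runt domain. CBFB, which does not contact DNA itself, joins that domain and strengthens its hold on DNA. RUNX1 is a master regulator of blood formation, RUNX2 of bone formation, and RUNX3 acts in T cells, sensory neurons and epithelia. The tail of each RUNX protein recruits Groucho corepressors such as TLE1 and TLE3, and the ETO proteins bring histone deacetylases to the factors they join. RUNX1, CBFB, RUNX1T1 and CBFA2T3 are all partners in leukaemia fusion genes. RUNX1, RUNX2 and RUNX3 are each read from a distal and a proximal start, which give proteins with different first residues.

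The sequences before 4 of these starts are shown because they carry a contrast between starts, not between whole genes, described further on. RefSeq promoter sequence (GRCh38.p14) was at hand for 7 of the 9 genes. Each stretch is the 250 bases that end just before the start, written 5′ to 3′ on the strand of the gene. Capitals mark the RUNX motif, searched as TGTGGT or TGCGGT and, on the other strand, ACCACA or ACCGCA. They lie at chr6:45328080-45328329 (plus strand) for the first start of RUNX2, chr1:24965011-24965260 (minus strand) for the first listed start of RUNX3, chr6:45422025-45422274 (plus strand) for the second start of RUNX2, and chr21:34888700-34888949 (minus strand) for the proximal start of RUNX1. In the first 2 the motif occurred before the start 2 times each, and in the last 2 it did not occur. The last listed RUNX3 start, not shown, held none either, and the distal RUNX1 start has no sequence at hand. Outside the RUNX genes the last listed TLE3 start, not shown, held the motif with no peak of either list within 1 kb.
RUNX2 first start: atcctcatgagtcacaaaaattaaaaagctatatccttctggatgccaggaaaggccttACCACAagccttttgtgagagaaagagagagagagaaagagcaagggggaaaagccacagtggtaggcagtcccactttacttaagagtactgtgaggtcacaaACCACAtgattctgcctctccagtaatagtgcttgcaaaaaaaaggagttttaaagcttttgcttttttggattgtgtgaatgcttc
RUNX3 first listed start: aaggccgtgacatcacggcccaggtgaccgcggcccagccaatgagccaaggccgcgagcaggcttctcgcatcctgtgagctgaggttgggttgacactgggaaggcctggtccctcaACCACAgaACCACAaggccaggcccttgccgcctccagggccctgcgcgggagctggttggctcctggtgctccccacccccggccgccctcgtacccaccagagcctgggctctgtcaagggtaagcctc
RUNX2 second start: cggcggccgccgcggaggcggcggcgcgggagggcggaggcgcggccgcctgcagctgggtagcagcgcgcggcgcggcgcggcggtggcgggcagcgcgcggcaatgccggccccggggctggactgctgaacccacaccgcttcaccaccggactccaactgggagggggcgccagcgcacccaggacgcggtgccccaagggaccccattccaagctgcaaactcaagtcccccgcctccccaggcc
RUNX1 proximal start: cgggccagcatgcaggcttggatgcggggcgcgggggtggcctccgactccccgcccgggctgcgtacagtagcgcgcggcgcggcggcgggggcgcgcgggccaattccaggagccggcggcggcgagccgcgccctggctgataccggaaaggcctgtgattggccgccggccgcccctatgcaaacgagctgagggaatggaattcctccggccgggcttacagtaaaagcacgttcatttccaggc

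The first starts of RUNX2 and RUNX3 also shared an unbroken run of 18 bases that holds the motif 2 times. It is shown because, of 35116 RefSeq promoter windows of 300 bases, only these 2 held it. The distal start of RUNX1 has no window among them, so the run was not searched for there. In the RUNX2 gene the run lay at chr6:45328344-45328361 and began at base 15 after the start, and in the RUNX3 gene it lay at chr1:24965126-24965143 and began at base -133, counted from the start.
Run shared by the first starts: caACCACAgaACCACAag

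Each list gave every peak a score. What scale it is on is not given in the sources used here, so scores were read within a list only, as a rank: the percentage of peaks of the same list with a lower score. The median score was 6.70 over the RUNX2 list and 7.58 over the MTA1 list. A peak was called shared when it overlapped a peak of the other list by at least 1 bp. The depth of the libraries is unknown, and a list holds only what passed its caller, so where no peak is given the signal may be weak as well as absent.

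RUNX2 peaks were found at all 9 genes and MTA1 peaks at 8, with RUNX3 the exception. Such a window is occupied at most genes: 90.8% of all protein-coding genes had a RUNX2 peak in it, 86.6% an MTA1 peak, and 84.9% both. Thus the presence of peaks was no more than the background, and the genes differed in the number, height and sharing of their peaks. RUNX1 held the most, with 26 RUNX2 and 23 MTA1 peaks, and RUNX1T1 the fewest RUNX2 peaks, with 1. Among the 10000 highest peaks of each list RUNX1 still held the most for RUNX2, with 8, but for MTA1 it held 2, against 4 each at TLE1 and CBFA2T2. Between them, in falling order of RUNX2 peaks, came TLE1 with 14, RUNX2 with 11, RUNX3 and CBFA2T2 with 8 each, CBFA2T3 with 7, CBFB with 6 and TLE3 with 5. The order of MTA1 peaks after RUNX1 was TLE1 with 9, CBFA2T2 with 8, RUNX2 with 6, CBFB with 5, CBFA2T3 with 4, RUNX1T1 with 3, TLE3 with 2 and RUNX3 with 0. With 1 library per antibody there is no spread to say which neighbours in these orders differ.

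**Figure D1:**
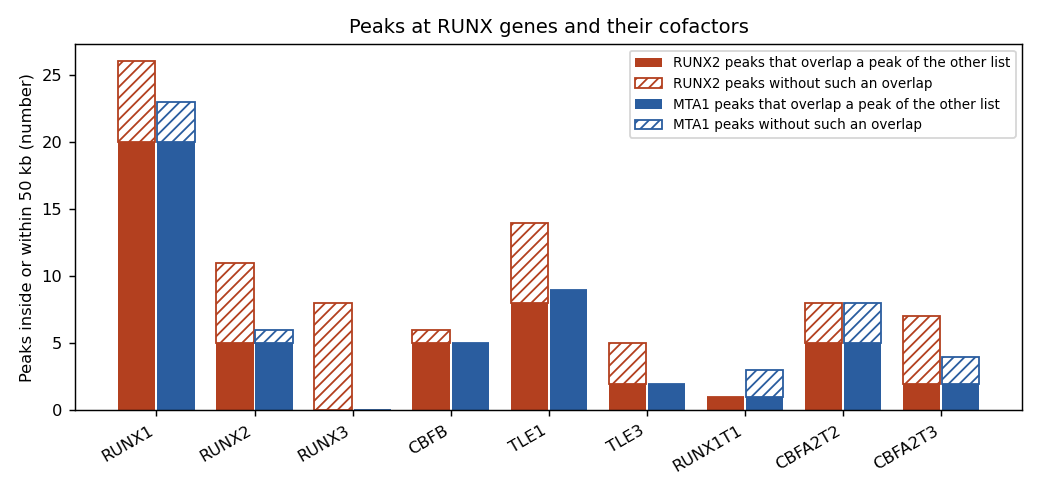
Number of RUNX2 peaks (red) and MTA1 peaks (blue) inside each gene or within 50 kb of it, 1 library per antibody. The filled part of a bar is the peaks that overlap a peak of the other list and the hatched part those that do not: 20 of 26 RUNX2 peaks were shared at RUNX1 and 0 of 8 at RUNX3.

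Inside the gene itself, 8 of the 9 genes had a RUNX2 peak, against 62.9% of protein-coding genes, and 8 had an MTA1 peak, against 60.6%. Within 3 kb of an end of the gene the counts were 8 for RUNX2 (59.9% of protein-coding genes) and 6 for MTA1 (59.1%), with both at 6 genes (51.9%). A shared pair was present at 8 genes, against 80.1% of protein-coding genes. The 9 genes are long, with a median window of 206 kb against 124 kb for protein-coding genes, and a longer window holds more peaks, so counts were also taken per 100 kb.

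RUNX1, the regulator of blood stem cell formation, carried peaks of both proteins at both starts, inside the gene and in both flanks, with long empty stretches between them. Of its 26 RUNX2 peaks 21 lay inside the gene, and 20 (76.9%, exact 95% interval 56.4 to 91.0) were shared with MTA1. Of its 23 MTA1 peaks 17 lay inside, and 20 (87.0%, 66.4 to 97.2) were shared. RUNX1 stood at the 99.6th percentile of protein-coding genes by number of RUNX2 peaks and at the 99.9th by number of MTA1 peaks. Per 100 kb of window the values were 7.19 RUNX2 and 6.36 MTA1 peaks, at the 83.2nd and 85.7th percentiles, so part of the count went with the length of its window, 362 kb.

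The highest RUNX2 peak of all 9 genes lay inside RUNX1, at chr21:34865450-34866058, 22.9 kb downstream of the proximal start. Its score was 57.3 (rank 99.2%), and the MTA1 peak it overlapped scored 13.1 (rank 75.3%). The highest MTA1 peak of the gene, 701 bp wide at chr21:34836154-34836854, scored 23.6 (rank 91.3%) and coincided with a RUNX2 peak of score 32.8 with almost the same edges. The next MTA1 peak of the gene by height scored 16.7 (rank 83.1%), above its RUNX2 partner in rank, which scored 5.48 (rank 40.7%). Among RUNX2 peaks with a rank of 90% or above, 7 of the 12 at the whole set belonged to RUNX1, and all 7 were shared. Their MTA1 partners had ranks from 14.8% to 91.3% in their own list. The 7 were picked by RUNX2 rank, so partners of lower rank follow in part from that choice. The third of the 3 highest RUNX2 peaks, at chr21:34808107-34808947, scored 33.0 and its MTA1 partner 6.82, with ranks of 95.1% and 43.3%.

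Both starts of RUNX1 were occupied. At the distal start the RUNX2 peak scored 36.2 (rank 96.1%) and reached from base -98 to base 171, while the MTA1 peak within it scored 4.78 (rank 14.8%). A further pair, with its RUNX2 peak centred at -2.28 kb from this start, had a RUNX2 score of 25.4 and an MTA1 score of 12.6. At the proximal start, 160.6 kb downstream, RUNX2 peaks of score 31.9 and 13.3 overlapped MTA1 peaks of score 8.31 and 11.9. A RefSeq start had a RUNX2 peak within 1 kb in 38.4% of cases, an MTA1 peak in 39% and both in 33.4%. The longest stretch of the RUNX1 window with no peak of either list, 75.3 kb at chr21:34890284-34965628, lay upstream of the proximal start. The 3 peaks of each list 41.3 to 43.6 kb beyond the downstream end lay nearer to CLIC6, a gene of the chloride intracellular channel family.

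At the RUNX2 gene, the bone regulator that was itself one target of the antibodies, RUNX2 peaks outnumbered MTA1 peaks. It held 11 RUNX2 peaks, of which 5 (45.5%, 16.7 to 76.6) were shared, and 6 MTA1 peaks, of which 5 (83.3%, 35.9 to 99.6) were shared. Per 100 kb it was near the middle of protein-coding genes, with 3.41 RUNX2 peaks (48.5th percentile) and 1.86 MTA1 peaks (39.1st percentile). The RUNX2 peaks were mostly of middle rank, with a median of 51.3%.

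The highest RUNX2 peak of the RUNX2 gene, at chr6:45438874-45439382, was 16.9 kb downstream of the second start. Its score was 41.4 (rank 97.3%), and that of its MTA1 partner 8.52 (rank 56.6%). A second high peak, at chr6:45543454-45543790 near the downstream end, scored 22.9 (rank 89.7%) and was not shared. Its nearest MTA1 peak was 56.0 kb away, although 84.1% of the 3081 RUNX2 peaks of like rank, within 2.5 percentage points, were shared. The third, at chr6:45445809-45446116, paired scores of 12.4 for RUNX2 and 6.07 for MTA1. The highest MTA1 peak of the gene, at chr6:45377954-45378265, scored 16.4 (rank 82.4%) against 9.85 (rank 68.0%) for its RUNX2 partner, and lay between the starts, just past the end of the neighbouring gene SUPT3H, which codes for a subunit of the SAGA coactivator.

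The first start of the RUNX2 gene had a RUNX2 peak and no MTA1 peak. The RUNX2 peak, of score 6.87 (rank 51.3%), spanned bases -196 to -96 from the start, in the stretch printed above, and the nearest MTA1 peak was 49.2 kb away. This start lies within the span of SUPT3H, so the peak cannot be given to one of the genes by position. At the second start, 93.9 kb downstream, a RUNX2 peak of score 10.1 (rank 68.9%) overlapped an MTA1 peak of score 6.99 (rank 44.1%), both just before the start. A RUNX2 peak of score 6.18 followed within 1 kb without an MTA1 partner.

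RUNX3 had 8 RUNX2 peaks and no MTA1 peak at all. This gene of the family, best known from T cell and epithelial biology, was the member with the sharpest difference between the lists, and it was singled out after its values were seen. None of the 8 RUNX2 peaks was shared (0%, exact 95% interval 0 to 36.9). They included 3 of high rank inside the gene, at chr1:24955154-24955386 with a score of 24.3 (rank 90.7%), at chr1:24949382-24949636 with 16.2 (rank 82.5%) and at chr1:24947413-24947556 with 12.3 (rank 75.4%). Of RUNX2 peaks of like rank 85.8%, 78.9% and 71.8% were shared over the whole list. Their nearest MTA1 peaks were 99.017 to 107 kb away. The other 5 RUNX2 peaks had ranks from 2.26% to 24.5%.

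A RUNX2 peak without any MTA1 peak in the window was found at 5.9% of protein-coding genes. Among the 6242 protein-coding genes with 8 or more RUNX2 peaks, 9 (0.144%) had no MTA1 peak, namely RUNX3, COL22A1, ADAMTS2, ROR2, KIF6, MUC16, RBFOX1, ZNF536 and ZNF618. Among the 1304 genes with exactly 8 RUNX2 peaks there were 3 (0.23%), and the median number of MTA1 peaks at these 1304 genes was 6. By RUNX2 peaks alone RUNX3 was not unusual, with 4.83 per 100 kb (64.3rd percentile). At its first listed start a RUNX2 peak of score 4.87 (rank 24.5%) reached from base -32 to base 146. At its last listed start, 34.9 kb downstream of the outermost one, neither list had a peak within 1 kb.

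**Figure D2:**
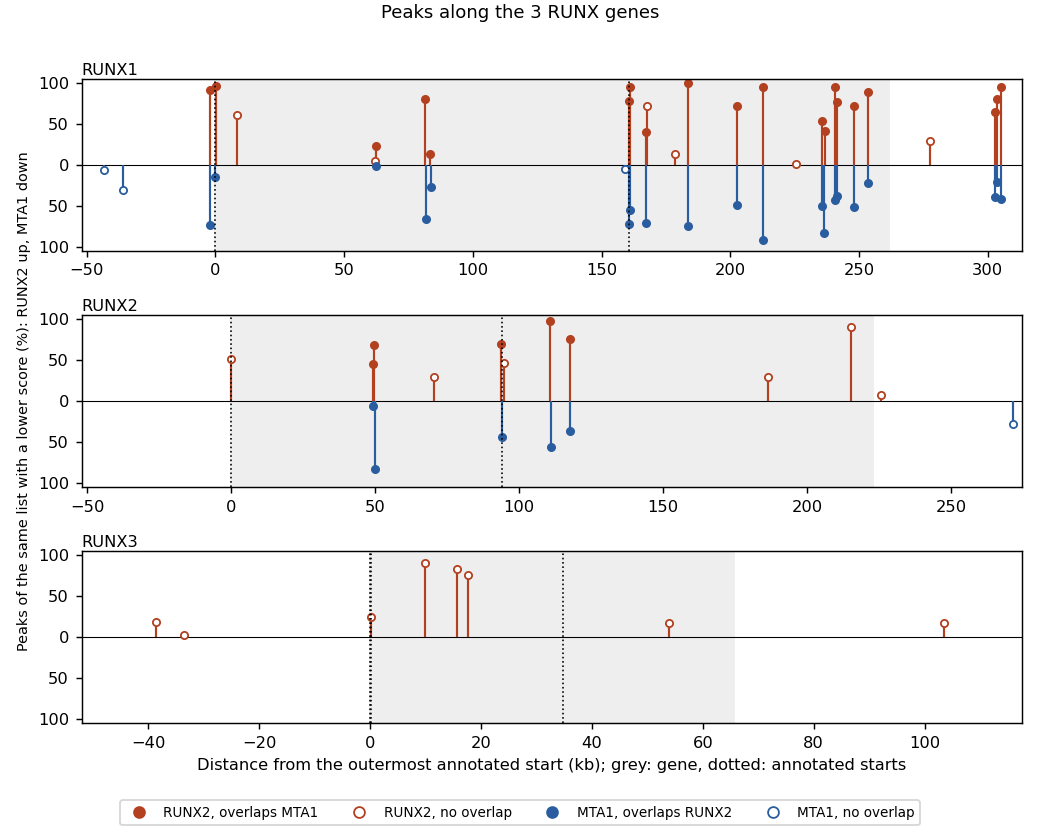
Peaks along RUNX1, RUNX2 and RUNX3, by distance in kb from the outermost annotated start, with the rank of each RUNX2 peak drawn upwards and of each MTA1 peak downwards (percentage of peaks of the same list with a lower score). Filled points overlap a peak of the other list, grey is the gene and dotted lines are annotated starts: RUNX1 has 20 filled and 6 open RUNX2 points with empty stretches between them, and RUNX3 has 8 open RUNX2 points and no MTA1 point.

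CBFB, the partner that stabilises all RUNX proteins on DNA, had 6 RUNX2 peaks, of which 5 were shared, and 5 MTA1 peaks, all of them shared. In each of the 5 pairs RUNX2 had the higher rank. The RUNX2 scores in order of coordinate were 22.2, 6.94, 16.7, 4.97, 9.20 and 48.3, and the MTA1 scores were 7.46, 7.01, 7.26, 9.98 and 7.26. By rank the RUNX2 peaks ran from 25.0% to 98.3% of their list and the MTA1 peaks from 44.5% to 64.4% of theirs. The highest RUNX2 peak, at chr16:67115598-67115970 (rank 98.3%), paired with an MTA1 peak of rank 46.6%, and the next, at chr16:67018005-67018227 (rank 89.1%), with an MTA1 peak of rank 48.5%. The third, of rank 83.2%, lay inside the gene at chr16:67055861-67056030 and its MTA1 partner, of score 7.26, had a rank of 46.6%. The highest peak lay 14.5 kb beyond the gene, inside the span of PHAF1. With peaks nearer to or inside another protein-coding gene left out, 3 RUNX2 and 2 MTA1 peaks remained. One end of CBFB, the one with the lower coordinate, carried a pair with scores of 6.94 and 7.01 (ranks 54.0% and 44.5%).

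TLE1 and TLE3 code for Groucho corepressors, which RUNX proteins recruit to silence genes, and they were occupied to different extents. TLE1 had 14 RUNX2 peaks, 8 of them shared (57.1%, 28.9 to 82.3), and 9 MTA1 peaks, all of them shared (100%, 66.4 to 100), since 2 MTA1 peaks fell in 1 RUNX2 peak. Per 100 kb it had 6.80 RUNX2 peaks (80.7th percentile) and 4.37 MTA1 peaks (71.6th percentile). TLE3 had 5 RUNX2 peaks, 2 of them shared, and 2 MTA1 peaks, both of them shared, and stood at the 47.5th and 30.2nd percentiles.

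At the start of TLE1 both lists had a broad peak with nearly the same edges, 543 bp wide with a score of 28.9 (rank 93.5%) for RUNX2 and 526 bp wide with 28.8 (rank 94.7%) for MTA1. The highest RUNX2 peak of TLE1 lay 23.5 kb past the downstream end, at chr9:81559665-81560190, with a score of 54.2 (rank 98.9%) and an MTA1 partner of score 17.7 (rank 84.5%). The highest MTA1 peak of the 9 genes lay inside TLE1, at chr9:81628855-81629138, with a score of 32.2 (rank 96.1%) and a RUNX2 partner of score 19.1 (rank 86.2%). A further pair inside the gene, at chr9:81588219-81588416 in the MTA1 list, had MTA1 at 19.3 and RUNX2 at 16.4. The median rank of the TLE1 peaks was 68.4% for MTA1 and 57.0% for RUNX2. In TLE3 the RUNX2 and MTA1 peaks at the first of the 3 listed starts scored 11.2 (rank 72.5%) and 8.11 (rank 54.1%), and a pair whose RUNX2 peak was centred at -1.83 kb scored 9.69 (rank 67.4%) and 14.7 (rank 79.1%). The first 74.4 kb downstream of the start pair, the rest of the gene included, held no peak of either list. The other high RUNX2 peak of TLE3, of score 10.6, lay beyond that stretch and was not shared.

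The ETO family genes were less alike. RUNX1T1, the fusion partner of RUNX1 in acute myeloid leukaemia, had 1 RUNX2 peak and 3 MTA1 peaks, and was the only one of the 9 genes with more MTA1 than RUNX2 peaks, as at 17.8% of protein-coding genes. The RUNX2 peak scored 4.84 (rank 22.9%) and overlapped an MTA1 peak of score 4.58 (rank 11.8%) just beyond the end with the higher coordinate. The highest MTA1 peak scored 4.84 (rank 14.9%). A stretch of 197 kb, or 79.4% of the window, was empty in both lists.

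CBFA2T2, a corepressor best known from the gut and from pluripotent cells, had 8 peaks in each list, 5 of them shared in each. At its outermost start the MTA1 peak was the highest of the gene, at chr20:33489813-33490054 with a score of 25.6 (rank 92.9%), and the RUNX2 peak there was also its highest, at chr20:33489813-33490231 with 19.4 (rank 86.5%). The next pair, of 15.5 for RUNX2 and 21.9 for MTA1 (ranks 81.5% and 89.8%), lay 36.4 kb beyond the gene at E2F1, a cell cycle regulator. Of the peaks counted for CBFA2T2, 3 of each list lay nearer to it than to another protein-coding gene.

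CBFA2T3, known from blood progenitors, had 7 RUNX2 and 4 MTA1 peaks and 2 pairs. No peak of either list lay within 1 kb of its listed starts, the nearest being a RUNX2 peak 3.98 kb away. The highest RUNX2 peak, at chr16:88925252-88925481 inside the gene, scored 12.7 (rank 76.2%) and its MTA1 partner 13.0 (rank 74.8%). The highest MTA1 peak, with a score of 15.5 (rank 80.8%), lay 17.7 kb beyond the downstream end, at the neighbouring genes TRAPPC2L and GALNS, where it overlapped a RUNX2 peak of score 11.0. A RUNX2 peak of score 11.9 lay alone inside the gene, 37.1 kb from the nearest MTA1 peak.

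**Figure D3:**
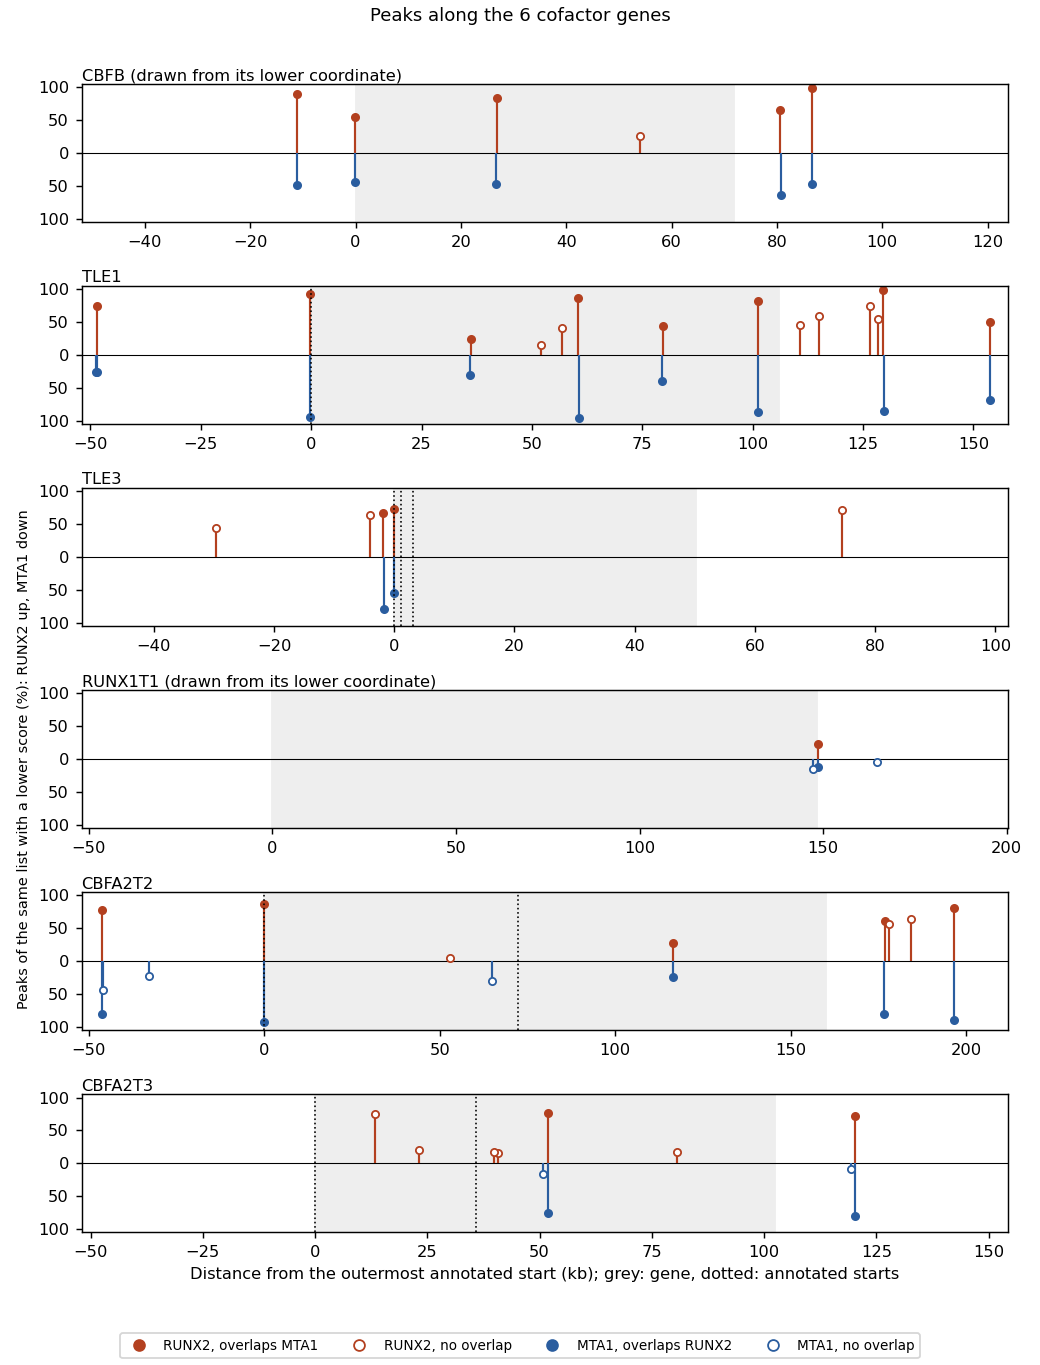
Peaks along the 6 cofactor genes, by distance in kb from the outermost annotated start (for CBFB and RUNX1T1 from the end with the lower coordinate), with the rank in percent of RUNX2 peaks drawn upwards and of MTA1 peaks downwards. Filled points overlap a peak of the other list, grey is the gene and dotted lines are annotated starts. Pairs stand at the start of TLE1, the first start of TLE3 and the outermost start of CBFA2T2, and no peak stands at the starts of CBFA2T3.

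Over the 9 genes, 48 of 86 RUNX2 peaks were shared (55.8%, exact 95% interval 44.7 to 66.5), against 45.4% of the whole list, which lies inside the interval. Of the 60 MTA1 peaks 49 were shared (81.7%, 69.6 to 90.5), against 65.5% of the whole list. RUNX1 gave more of these peaks than any other gene, and without it the shared number was 28 of 60 in the RUNX2 list (46.7%, 33.7 to 60.0) and 29 of 37 in the MTA1 list (78.4%, 61.8 to 90.2), and both whole-list shares then lay inside the intervals. The intervals cover counting error over peaks only, and peaks of the same gene are not independent.

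Sharing went with height, as it did over the whole lists. Of RUNX2 peaks scoring no lower than the median of their list 38 of 53 (71.7%) were shared, against 70.3% over the list, and of those below it 10 of 33 (30.3%), against 20.4%. Of MTA1 peaks at or above the median all 26 (100%) were shared, against 88.4% over the list, and of those below it 23 of 34 (67.6%), against 42.5%. The RUNX2 peaks at these genes were somewhat high in their list, with a median rank of 64.1%, and the MTA1 peaks somewhat low, with 45.6%. A rank of 90% or above was held by 12 RUNX2 peaks (14.0%) and 4 MTA1 peaks (6.67%). Peaks of the narrowest width, 99 bp in the RUNX2 list and 116 bp in the MTA1 list, made up 17.4% of the RUNX2 peaks here against 31.7% of that list, and 28.3% of the MTA1 peaks here against 26.0%.

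By role, 25 of 45 RUNX2 peaks at the RUNX genes were shared (55.6%, 40.0 to 70.4), 10 of 19 at the Groucho genes (52.6%, 28.9 to 75.6) and 8 of 16 at the ETO family genes (50%, 24.7 to 75.3). Of MTA1 peaks 25 of 29 were shared at the RUNX genes (86.2%, 68.3 to 96.1), 11 of 11 at the Groucho genes (100%, 71.5 to 100) and 8 of 15 at the ETO family genes (53.3%, 26.6 to 78.7). The intervals of the roles overlapped.

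In the 48 pairs RUNX2 had the higher rank in 33 (68.8%), against 56.7% of the 27997 pairs of the whole list. RUNX1 alone gave 20 of the 48 pairs and 17 of these 33, so the share over the set rests largely on that gene. The genes parted here. RUNX2 ranked higher in 17 of 20 pairs at RUNX1, 4 of 5 at the RUNX2 gene and 5 of 5 at CBFB, but in 3 of 8 at TLE1 and 1 of 5 at CBFA2T2. The median difference in rank, RUNX2 minus MTA1, was 21.8 percentage points at RUNX1, 38.4 at the RUNX2 gene, 36.6 at CBFB, -2.72 at TLE1 and -6.39 at CBFA2T2. Pairs of the same gene share the same 2 libraries, so the difference between the genes was not tested.

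**Figure D4:**
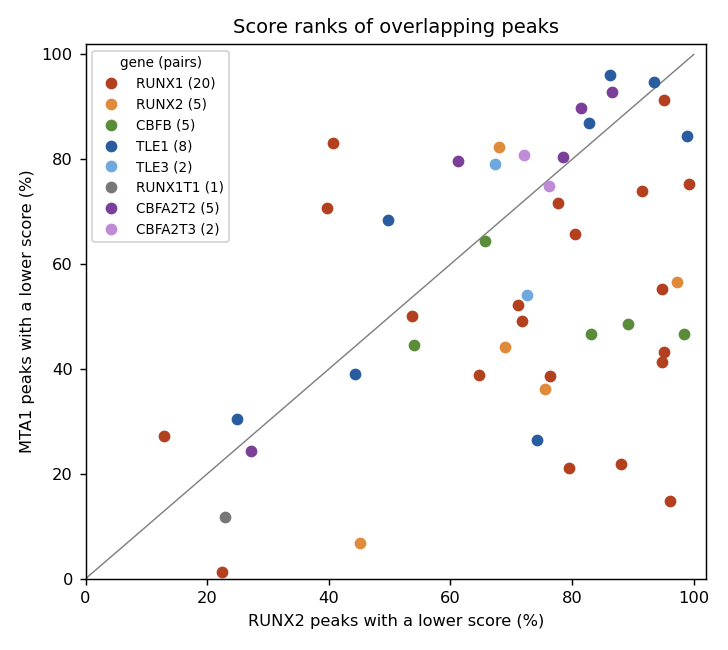
Rank in percent of the RUNX2 peak (horizontal) and of the MTA1 peak (vertical) in each of the 48 overlapping pairs, coloured by gene, with the line of equal rank. Of the RUNX1 pairs 17 of 20 and of the CBFB pairs 5 of 5 lie below the line, where RUNX2 ranks higher, and 4 of 5 CBFA2T2 pairs lie above it.

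Per 100 kb of window the median over the 9 genes was 3.46 RUNX2 peaks, against 3.55 over all protein-coding genes, and 1.98 MTA1 peaks, against 2.58. The range over the 9 was wide, from 0.403 at RUNX1T1 to 7.19 at RUNX1 for RUNX2, and from 0 at RUNX3 to 6.36 at RUNX1 for MTA1. So only RUNX1 and TLE1 stood above the 70th percentile in both lists, and the other 7 genes stood below it in both. This division changed with the settings. With a window of 10 kb TLE1 stood at the 62.9th percentile for MTA1. In the gene body alone RUNX3 stood at the 77.4th and CBFA2T3 at the 70.6th for RUNX2. With peaks of at least the median score CBFB stood at the 70.7th for RUNX2. Among the 10000 highest peaks RUNX1 stood at the 46.5th for MTA1, CBFB at the 77.0th for RUNX2 and CBFA2T2 at the 75.9th for MTA1.

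**Figure D5:**
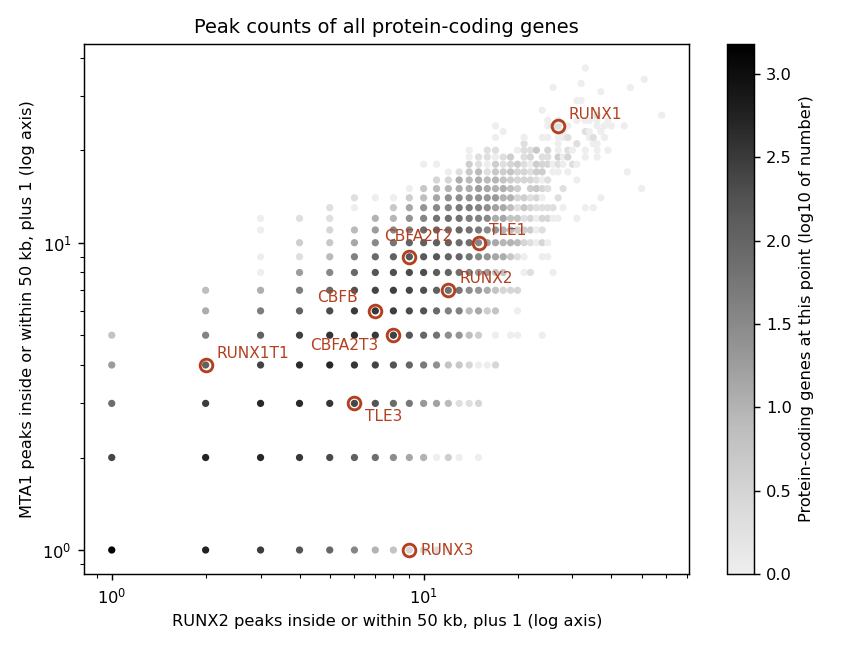
Number of RUNX2 peaks and of MTA1 peaks inside or within 50 kb of each protein-coding gene, each plus 1 and on a log axis, with darker points for more genes and the 9 genes ringed. RUNX1 stands at the upper end of both counts, and RUNX3, with 8 RUNX2 and 0 MTA1 peaks, on the lower edge among few other genes.

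The RUNX motif was looked for in the promoter windows of 300 bases, from 250 before each start to 50 after it, with overlapping matches counted separately. Of the 11 windows of the 7 genes 3 held it (27.3%), against 6879 of 35116 RefSeq windows (19.6%). The window of the first RUNX2 start held it 5 times, a number that 4 windows (0.0114%) reached or passed. The first listed RUNX3 start held it 2 times, as at least 2.32% of windows did, and so did the last of the 3 TLE3 starts. No peak of either list touched that TLE3 window, and the nearest lay 3050 to 3089 bp from its matches. In the first RUNX2 window the matches began at bases -191, -87, 17, 25 and 33. The match at -191 lay whole within the RUNX2 peak of score 6.87, the next was 9 bp outside it and the others were 112 to 128 bp away. In the RUNX3 window the matches were 94 and 86 bp from the RUNX2 peak there. The windows of the proximal RUNX1 start, TLE1, the second RUNX2 start and the first TLE3 start, all touched by peaks of both lists, held no match. Those of the last listed RUNX3 start, the second TLE3 start and the inner starts of CBFA2T2 and CBFA2T3, touched by no peak, held none either. The inner CBFA2T2 start lies 72.2 kb downstream of the outermost one, where the gene's highest peaks stood. The outermost starts of CBFA2T2 and CBFA2T3 have no window, so the motif was not searched for there. A RUNX2 peak touched 29.2% of all windows and an MTA1 peak 31.2%. Windows touched by a RUNX2 peak held the motif in 21.9% of cases (21.1 to 22.7) and those not touched in 18.6% (18.2 to 19.1), and for MTA1 the shares were 19.2% and 19.8%. A match of letters is a description and not a binding site.

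For comparison, 24 further genes of known RUNX partners were counted in the same way. They included TLE2, TLE4, TLE5 and TLE6 of the Groucho family, the corepressors SIN3A, NCOR1, HDAC1 and HDAC3, the acetyltransferases EP300, CREBBP, KAT6A and KAT6B, the methyltransferases PRMT1 and SUV39H1, the WW-domain partners YAP1 and WWTR1, the ubiquitin ligases SMURF1, SMURF2, WWP1 and STUB1, the deubiquitinase USP7, the kinase HIPK2 and the CBFB fusion partner MYH11. RUNX2 peaks were present at 23 of the 24 and MTA1 peaks at all 24, and TLE4 was the gene without a RUNX2 peak. Per 100 kb their medians were 5.38 RUNX2 and 2.75 MTA1 peaks. Of 232 RUNX2 peaks 51.7% (45.1 to 58.3) were shared, and of 164 MTA1 peaks 72.0% (64.4 to 78.7), intervals that overlap those of the 9 genes.

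Some of them approached RUNX1 in number of RUNX2 peaks. SMURF2, a ubiquitin ligase that acts on RUNX proteins, had 22 RUNX2 and 19 MTA1 peaks, and WWTR1, the coactivator TAZ, had 21 and 9. Per 100 kb SMURF2, with 10.0 RUNX2 and 8.64 MTA1 peaks, stood above RUNX1, with 7.19 and 6.36. WWTR1, with 6.83 and 2.93, stood below RUNX1. HDAC3, PRMT1, STUB1, TLE2, TLE5 and TLE6 also stood above RUNX1 per 100 kb in both lists. Most peaks counted for these genes lay in the flanks, so the densities describe mainly their surroundings. No peak of either list lay inside STUB1 or TLE5. Inside HDAC3 lay 2 RUNX2 and 0 MTA1 peaks, inside PRMT1 1 and 1, inside TLE6 2 and 1, and inside TLE2 4 and 5. SMURF2 held 9 and 7 inside the gene, and RUNX1 21 and 17. The highest RUNX2 peak at these 24 genes lay in the window of HDAC3, with a score of 72.0 (rank 99.8%). KAT6B had 3 peaks in each list, with the highest at 56.9 for RUNX2 (rank 99.1%) and 54.1 for MTA1 (rank 99.6%). TLE2, TLE5 and TLE6 are neighbours whose windows share peaks, so their counts of 13, 8 and 11 RUNX2 peaks are not independent.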

How the data were processed

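The authors made 1 CUT&Tag library per antibody (RUNX2, MTA1) from MDA-MB-231 cells and deposited its peaks as a list of positions, each with a score whose scale is not given in the sources used here. The submitters' processing notes name CASAVA 1.4, Bowtie 0.12.8, MACS, MACS2 and hg19, without their roles. The labels describe end repair and adaptor ligation, which CUT&Tag libraries do not usually need. Reads, depth and any control library were not analysed here.

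The notes name hg19, but the positions matched GRCh38. This check covered 58795 RUNX2 and 40679 MTA1 peaks, not the whole lists. A RefSeq start was within 1 kb for 18.2% of these RUNX2 peaks and 25.5% of these MTA1 peaks, but for 3.06% and 3.17% once positions were moved by 100 kb. The gene table of GRCh38.p14 gave gene names and neighbours. Peak positions are those of the lists, written 1-based. Strand and starts came from the promoter table and, for the distal starts, the outer end of the gene. CBFB and RUNX1T1 have no strand there, so their ends are named by coordinate. The 17 RUNX2 and 15 MTA1 mitochondrial peaks were left out.

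Peaks were assigned, ranked and overlapped with Python 3.11.15, pandas 2.3.3, numpy 2.4.6, scipy 1.17.1 (intervals) and matplotlib 3.10.9 (figures). The overlap step was checked on slightly moved copies of part of the RUNX2 peaks. Counts in gene windows were checked against a direct count, and the ranking was not checked. Shares carry exact (Clopper-Pearson) 95% intervals. The genes and lists were chosen with earlier results of these data known. By rule the text names all 9 genes, the highest peak of each gene and list, the shared pairs among the 3 highest peaks of a gene, and the 24 partner genes, except that the values of 1 partner gene and of 1 pair of peaks are not reported here. Peaks at starts, unshared high peaks and genes resembling RUNX3 were chosen after their values were seen. Alternatives changed the window, the score threshold, the definition of overlap, the merging and placing of peaks, the gene that owns a peak and the motif letters.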

Additional observations from a re-analysis of the deposited data

How the results depend on the processing

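The count of peaks at the 9 genes moved with the window and the threshold. Of 86 RUNX2 and 60 MTA1 peaks, 55 and 34 lay in the genes themselves, 53 and 26 scored at least the median, and 17 and 13 were among the 10000 highest of their lists. The shared percentage of RUNX2 peaks fell from 55.8 to 37.2 when both peaks had to overlap by 50%. It fell to 43.4 among peaks scoring at least the median in both lists and to 29.4 among the 10000 highest. That of MTA1 peaks fell from 81.7 to 53.3 with the 50% overlap and to 38.5 among the 10000 highest, but was 88.5 with the median score. With a window of 10 kb the percentages were 56.25 for RUNX2 and 90 for MTA1, and in the gene body 58.2 and 88.2. Whole-list percentages under the overlap and score settings are not given here. The score settings and the gene body leave fewer peaks by construction, whereas the 50% overlap keeps every peak and changes only what counts as a pair. The median peaks per 100 kb became 0.604 for RUNX2 among the 10000 highest, and for MTA1 0.988 with peaks of at least the median score and 0.494 among the 10000 highest. Of the genes, 3 had a RUNX2 and 3 an MTA1 peak within 3 kb of an end among the 10000 highest. The share of all protein-coding genes at that threshold is not given here, so these counts cannot be called many or few. RUNX3 had no MTA1 peak under any alternative, but none of them widened the window or added peaks, so this outcome was fixed in advance. RUNX1T1 kept no RUNX2 peak inside the gene itself. The setting without RUNX1 was chosen after seeing the data. Over the 18 counts by gene and list, the 10000 highest lowered 17, all by over 1.5 times, and 6 of the 18 were then 0, among them MTA1 at RUNX3, which was 0 from the outset. The gene body lowered 17 and the median score 16, each with 12 by over 1.5 times. A window of 10 kb lowered 14 (8 by over 1.5 times), leaving out peaks nearer to another gene 11 (5), merging within 500 bp 6 (0) and placing peaks by their centre 0. No paired analysis was possible because each antibody has 1 library and no result comes from a test. Unknown depth, the lists' own thresholds and the lack of a replicate or control library limit all of these values.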

Other observations

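The genes closest to the RUNX2 gene in their counts of both lists and their window length were RHBDD1 and EML6, with 11 RUNX2 and 6 MTA1 peaks each, and EPB41, with 10 and 6. Each of the 3 had 5 RUNX2 peaks that overlapped an MTA1 peak, as the RUNX2 gene did. The likeness was the Euclidean distance over log2(count + 1) of each list and log2 window length, taken from 2 libraries, and says nothing of shared control.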
